A study of Bos taurus with 8 samples.

Results

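The genes described here encode the enzymes and transporters that build, sulfate and trim glycosaminoglycans, the long sugar chains of cartilage proteoglycans. A list of 50 such genes was matched by gene symbol to a table of RNA-Seq read counts from bovine articular chondrocytes, and 46 of the 50 were found among its 24596 genes. The 4 without a match were *UST*, *HS2ST1*, *HS6ST1* and *HS6ST2*, and they were not analysed here. Of the 46 genes, 44 had enough counts to be tested, and *CHST7* and *CHST13* did not. The rule for the members uses their function and no measured value, although the list was drawn up with earlier results of these data known.

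A glycosaminoglycan chain is started on a serine of a core protein by a short linker of xylose, galactose and glucuronic acid. Addition of *N*-acetylgalactosamine to the linker makes the chain chondroitin sulfate, which becomes dermatan sulfate where glucuronic acid is turned into iduronic acid, and addition of *N*-acetylglucosamine makes it heparan sulfate. Keratan sulfate grows on other linkers. Sulfotransferases of the Golgi then place sulfate groups on the sugars, using the donor PAPS (3′-phosphoadenosine 5′-phosphosulfate). In cartilage, the chondroitin sulfate chains of aggrecan hold water and give the tissue its stiffness, and the heparan sulfate around chondrocytes binds growth factors.

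The libraries came from wild-type chondrocytes of the knee joints of bovine calves aged 1 to 2 weeks. Superficial zone chondrocytes (SZCs) were taken from the surface slice of the cartilage and deep zone chondrocytes (DZCs) from the deep slice of the same cores, and both were grown in medium with 10% fetal bovine serum for 3 days before RNA was extracted. The slices were pooled by joint, and the middle of each core was not used. There were 2 libraries from each zone, SZC replicates 1 and 2 and DZC replicates 1 and 2, each of untreated cells. The comparison asks how the genes differ between the zones after this culture, and in such bulk samples a smaller share of cells expressing a gene and less RNA per cell cannot be told apart.

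Library totals lay between 19918970 and 21890549 counts. Levels are given as CPM, the counts of a gene relative to the library total after scaling by the trimmed mean of *M* values (TMM), and 3 counts correspond to between 0.129 and 0.187 CPM. DZC replicate 1 stood apart in composition. *COL2A1*, the main collagen of cartilage, took 24.5% of its counts, against 6.31% to 12.9% in the other 3 libraries. All 9 markers of chondrocytes (such as *COL2A1*, *ACAN* and *SOX9*) were present at 48.5 CPM or more in every library. Their summed level was 136250 and 136819 CPM in SZCs and 529056 and 205288 CPM in DZCs. Their log2 fold changes lay between -2.04 and -0.05, and those of *SOX9* (-0.05) and *HAPLN1* (-0.06) are given without a direction. For *ACAN*, *SOX9* and *HAPLN1* the zones overlapped. All 6 markers of the superficial zone were higher in both SZC libraries. The study reports them as higher in SZCs from these same libraries, so their direction was known beforehand and is no separate check. Markers of other cells were low, apart from bone and hypertrophic markers in DZC replicate 2. The summed level of 5 immune markers was between 17.0 and 27.2 CPM in SZCs and between 6.35 and 12.1 CPM in DZCs, with *CD3E* at or below 0.129 CPM and *PTPRC* at or below 0.603 CPM in every library. Most of it was *CD14*, a marker of monocytes and macrophages, at 12.0 and 16.1 CPM in SZCs and 3.92 and 6.59 CPM in DZCs (edgeR FDR 0.142). For 5 endothelial markers the sum was 5.32 and 10.6 CPM in SZCs and 3.86 and 7.80 CPM in DZCs. For 6 bone and hypertrophic markers it was 2.00 and 1.46 CPM in SZCs, 0.187 CPM in DZC replicate 1 and 48.2 CPM in DZC replicate 2, with *BGLAP* and *DMP1* near 0 throughout. The sum of 5 muscle markers did not exceed 6.38 CPM, and *MYOD1* was at 0 in every library. The part of these cells in the results below was not tested.

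SZCs and DZCs were compared by the exact test of edgeR across all 12857 genes with enough counts, with Benjamini–Hochberg adjustment (given as the edgeR FDR, beside the standard error, SE, of the log2 fold change), and a gene was called when its FDR was below 0.05. Of the 44 glycosaminoglycan genes, 3 were called (6.82%), against 2.93% of all genes tested. *SULF2* and *SLC26A2* were higher in SZCs, where 2.23% of all genes were called, and *B3GAT2* was higher in DZCs, where 0.700% were called. *B3GAT2* passed the filter on low counts only through the DZC libraries, where it is high, so that its being tested already required a difference, and nothing is read from the count of 3 against the share of all genes. The same limit holds for the counts below, by unadjusted p-value, by overlap and by size of fold change, which include *B3GAT2*. At an unadjusted p-value below 0.05 there were 6 of the 44 genes, 4 higher in SZCs and 2 higher in DZCs, which is 13.6% against 9.09% of all genes (6.08% higher in SZCs and 3.01% higher in DZCs). The libraries of the zones did not overlap for 21 of the 44, with 14 higher in SZCs and 7 higher in DZCs. This is 47.7%, against 41.5% of all genes tested (21.0% higher in SZCs and 20.5% higher in DZCs). The median log2 fold change (SZCs over DZCs) of the 44 genes was 0.13, beside -0.04 over all genes, and it was positive for 27 of the 44 (61.4%, against 46.6% of all genes). A log2 fold change of at least 1 in either direction was found for 4 of the 44, beside 12.3% of all genes tested. Scaling by library totals instead of TMM raised the median of all genes from -0.04 to 0.26, and with it 37 of the 44 genes were positive (84.1%, against 73.8% of all genes) and 29 did not overlap (65.9%, against 43.5% of all genes). Of the 29, 24 were higher in SZCs, as were 36.0% of all genes, and 5 higher in DZCs, as were 7.51% of all genes. With library totals, 10 of the 44 genes turned from negative to positive, the lowest of them *SLC35B2* at -0.41 with TMM. Log2 fold changes between -0.41 and 0 are therefore given without a direction. The edgeR quasi-likelihood test called 0 genes, with 1126 genes and 7 of the 44 at an unadjusted p-value below 0.05. Leaving out a library moved the count of called members from 3 to 0 without SZC replicate 1, to 1 without SZC replicate 2, to 5 without DZC replicate 1 and to 16 without DZC replicate 2. The number of all genes called moved with it, from 377 to 68, 162, 859 and 2768 in the same order. In these fits the zone with a single library is assumed to vary like the other zone.

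**Figure D1:**
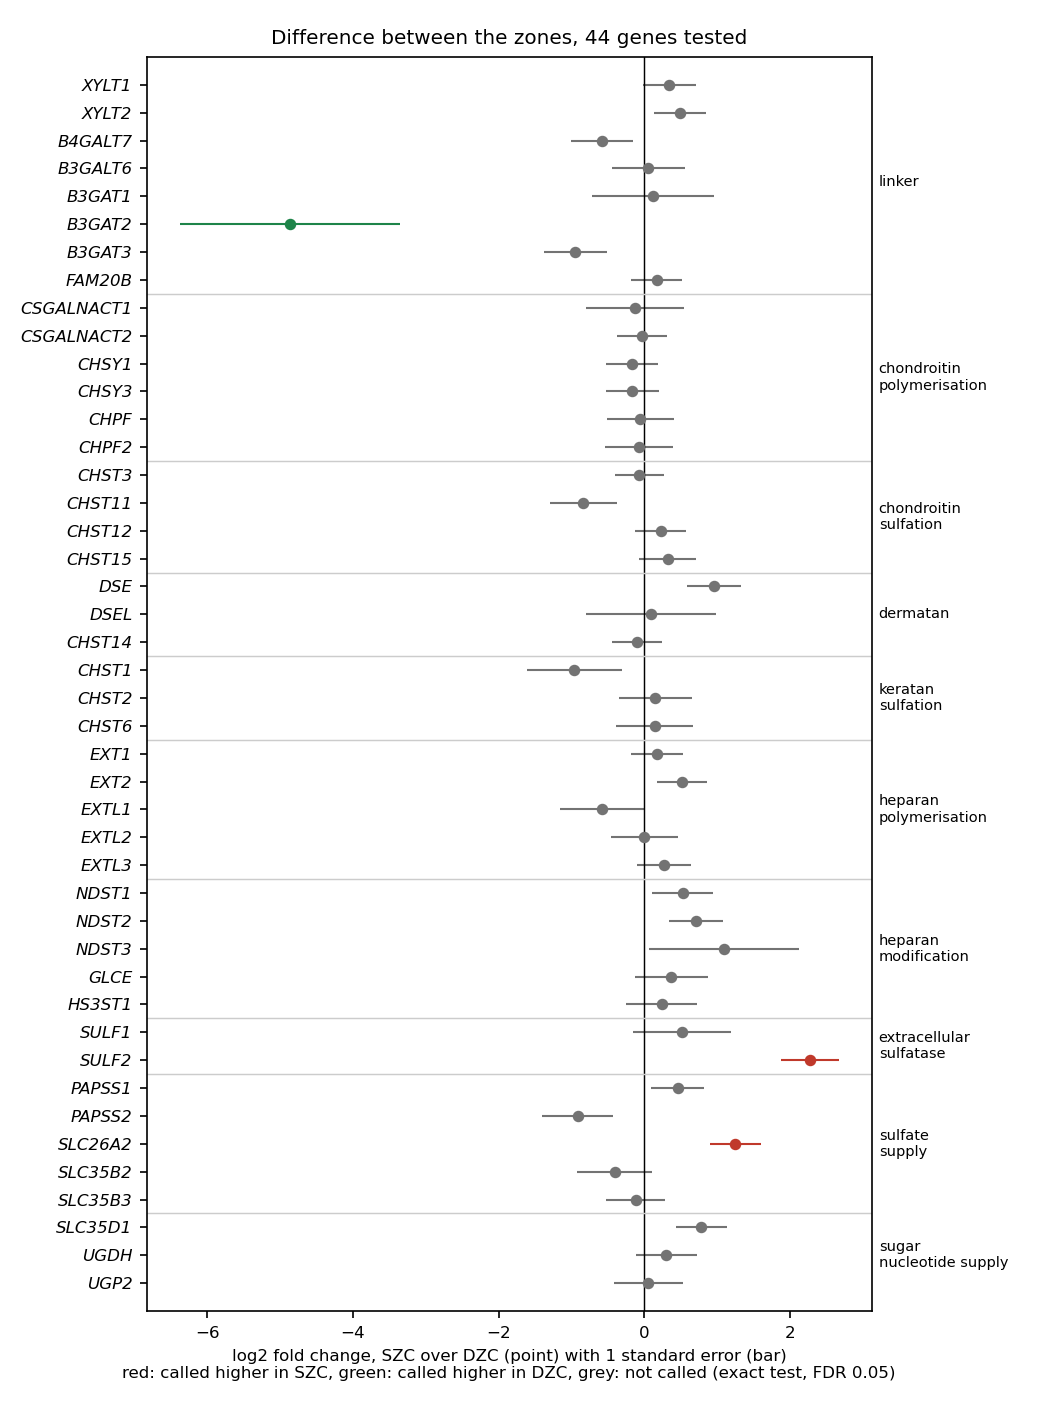
Log2 fold change of SZCs over DZCs for each of the 44 genes tested (point) with 1 SE (bar), arranged by role in the pathway. *SULF2* (2.27) and *SLC26A2* (1.25) are the called genes on the SZC side and *B3GAT2* (-4.87) is the called gene on the DZC side, while the other genes lie between -0.96 and 1.10.

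*SULF2* had the lowest p-value of the 44 genes. It encodes an enzyme that is secreted to the cell surface and removes 6-*O*-sulfate groups from heparan sulfate. *SULF2* (ENSBTAG00000007490) was counted 15385 and 14112 times in SZC replicates 1 and 2, and 1746 and 3603 times in DZC replicates 1 and 2. Its level was 699 and 608 CPM in the SZC libraries and 109 and 161 CPM in the DZC libraries. Both SZC libraries were above both DZC libraries by a wide margin, and the means were 653 ± 64 CPM (SD, n = 2) and 135 ± 37 CPM (SD, n = 2). The log2 fold change was 2.27 (SE 0.40, edgeR FDR 1.01e-05), a 4.84-fold difference, and the gene ranked 59 by p-value among all genes tested. DESeq2 gave an FDR of 5.72e-08. The call was lost in the edgeR quasi-likelihood test (FDR 0.162) and in edgeR's exact test without SZC replicate 1 (FDR 0.102, log2 fold change 2.17). With any other library left out it held, and the log2 fold change stayed between 2.02 and 2.61.

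*SULF1* encodes a further extracellular sulfatase, which acts on the same sulfate groups. Its level was 44.2 and 57.2 CPM in the SZC libraries, 13.7 CPM in DZC replicate 1 and 57.0 CPM in DZC replicate 2. The DZC libraries thus differed 4.14-fold from each other, and the one that was high lay within the SZC range. The log2 fold change of *SULF1* was 0.52 (SE 0.67, edgeR FDR 0.994), with a 95% interval from -0.79 to 1.83, and it was -0.17 without DZC replicate 1 and 1.90 without DZC replicate 2. Within libraries, the log2 ratio of *SULF1* to *SULF2* counts was -3.98 and -3.41 in SZCs and -2.98 and -1.50 in DZCs. This ratio, which does not depend on library scaling, was 2.74-fold higher in DZCs on average. Its values did not overlap between the zones, although an exact two-sided permutation test with 2 libraries against 2 cannot give a p-value below 0.333.

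*SLC26A2* (ENSBTAG00000014615) encodes the sulfate transporter of the chondrocyte plasma membrane, and its loss causes diastrophic dysplasia and related disorders of cartilage. It was at 83.3 and 108 CPM in SZCs and at 42.6 and 37.8 CPM in DZCs. The zones did not overlap, and the DZC libraries lay close together. The log2 fold change was 1.25 (SE 0.35, edgeR FDR 0.0196), a 2.38-fold difference, and DESeq2 gave an FDR of 0.0134. The call was lost in edgeR's quasi-likelihood test (FDR 0.252) and in edgeR's exact test without SZC replicate 1 (FDR 0.685) or SZC replicate 2 (FDR 1.00), with log2 fold changes of 1.43 and 1.05. In the RefSeq gene table of assembly ARS-UCD2.0 the gene shares its span with *PDE6A*, which had at most 7 counts in any library.

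Inside the cell, sulfate is turned into PAPS by the PAPS synthases, encoded by *PAPSS1* and *PAPSS2*. Neither gene was called, and they lay in opposite directions. *PAPSS1* was at 176 and 133 CPM in SZCs and 121 and 104 CPM in DZCs, a log2 fold change of 0.46 (SE 0.36, edgeR FDR 0.876). *PAPSS2*, whose loss causes a form of spondyloepimetaphyseal dysplasia, was at 258 and 373 CPM in SZCs and at 793 and 396 CPM in DZCs. The SZC value of 373 CPM and the DZC value of 396 CPM were close together, and the log2 fold change was -0.92 (SE 0.49, edgeR FDR 0.619). It was -0.33 and -1.31 without DZC replicates 1 and 2 in turn, and -0.67 and -1.2 without SZC replicates 1 and 2. The log2 ratio of *PAPSS2* to *PAPSS1* counts within libraries was 0.55 and 1.48 in SZCs and 2.71 and 1.93 in DZCs, a ratio 2.47-fold higher in DZCs without overlap between the zones. The carriers that bring PAPS into the Golgi, *SLC35B2* and *SLC35B3*, had log2 fold changes of -0.41 and -0.12 and were not called. With scaling by library totals both were positive, at 0.03 and 0.18, and no direction is read from them. *SLC35B2* was at 154 CPM in DZC replicate 1 and 59.4 CPM in DZC replicate 2, on either side of the SZC values of 79.0 and 82.3 CPM.

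**Figure D2:**
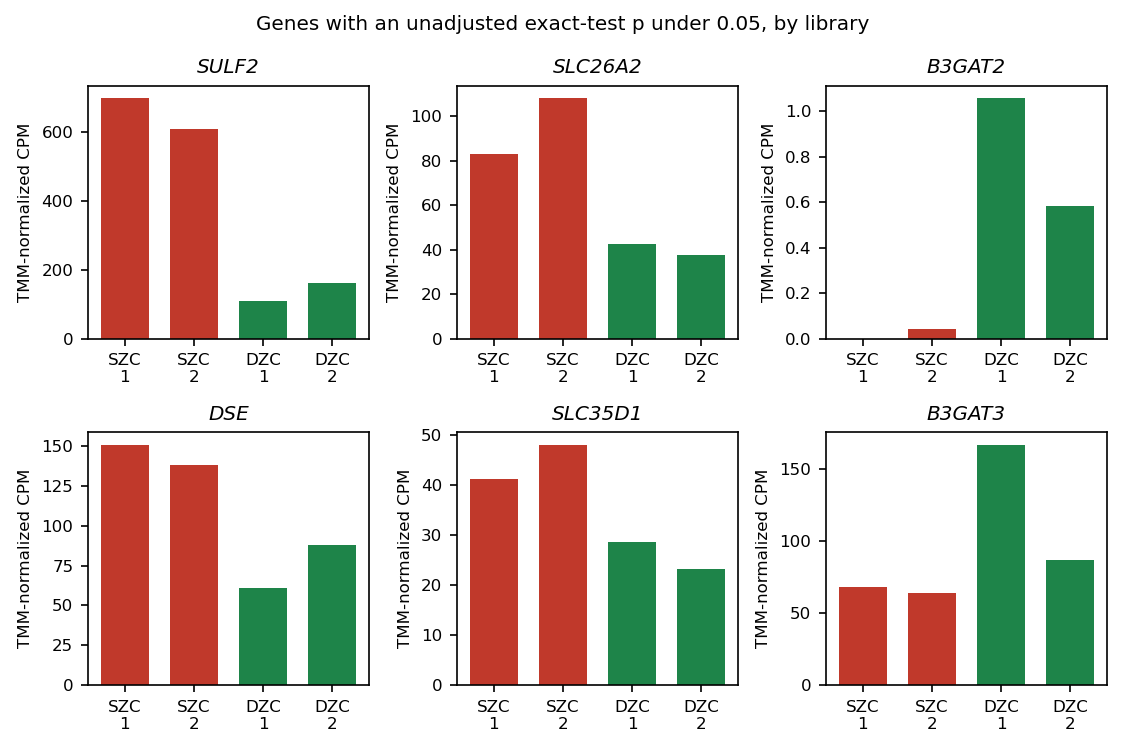
TMM-normalized CPM in each library (bars; red SZC, green DZC, replicates 1 and 2) for the 6 genes with an unadjusted p-value below 0.05. *SULF2*, *SLC26A2*, *DSE* and *SLC35D1* are higher in both SZC libraries, and *B3GAT2* and *B3GAT3* are higher in both DZC libraries.

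The sugars reach the chains as UDP-sugars. *UGP2* makes UDP-glucose, *UGDH* oxidizes it to UDP-glucuronic acid, and *SLC35D1* encodes a carrier that moves UDP-glucuronic acid and UDP-*N*-acetylgalactosamine into the endoplasmic reticulum. None of the 3 was called. *SLC35D1* was at 41.1 and 48.1 CPM in SZCs and at 28.6 and 23.2 CPM in DZCs. The zones were separate for this gene, and its log2 fold change of 0.79 (SE 0.35, edgeR FDR 0.385) missed the threshold. This fold change was 0.95 and 0.66 without DZC replicates 1 and 2 in turn, and 0.89 and 0.67 without SZC replicates 1 and 2. *UGDH* was at 99.9 and 140 CPM in SZCs and 120 and 74.2 CPM in DZCs, so the zones overlapped. *UGP2* was at 664 and 699 CPM in SZCs, and its DZC values of 883 and 426 CPM lay on either side of these.

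Of the 8 genes listed for the linker, 1 was called, beside 2.93% of all genes, and it was *B3GAT2*, which entered the test only through its DZC counts. *B3GAT2* (ENSBTAG00000020817) and *B3GAT1* encode relatives of the linker glucuronyltransferase that are known for making the HNK-1 sugar epitope of the nervous system. *B3GAT2* was counted 0 and 1 times in SZC replicates 1 and 2, and 17 and 13 times in DZC replicates 1 and 2. In CPM the DZC values were 1.06 and 0.583. Both SZC libraries were thus below the floor of 3 counts and both DZC libraries were above it, all at low counts. From the summed counts of 1 and 30, the level in DZCs was 35.3-fold that in SZCs, with a 95% interval from 5.88 to 1442 that covers counting error only. The FDR was 0.0132 by edgeR's exact test. The call was lost in DESeq2 (FDR 0.218), in edgeR's quasi-likelihood test (FDR 0.291), and in edgeR's exact test without SZC replicate 1 (FDR 1.00) or SZC replicate 2 (FDR 0.663), and the gene drops out when more than 1 CPM is required in 2 or more libraries. In the RefSeq table its span overlaps *SMAP1*, which had 628 to 805 counts per library, and these counts do not separate strands.

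None of the other linker genes was called. *XYLT1* and *XYLT2* attach the xylose that starts each chain. *XYLT1* was at 422 and 481 CPM in SZCs and 385 and 327 CPM in DZCs, a log2 fold change of 0.34 (SE 0.36, edgeR FDR 0.975). *XYLT2* was at 22.2 and 21.9 CPM in SZCs and 15.8 and 15.5 CPM in DZCs. The replicates of *XYLT2* were very close within each zone and the zones were separate, yet its log2 fold change of 0.49 (edgeR FDR 0.852) was far from the threshold. *B3GAT3*, which adds the glucuronic acid that completes the linker, lay the other way. It was at 68.1 and 63.7 CPM in SZCs and at 167 and 87.0 CPM in DZCs, a log2 fold change of -0.95 (SE 0.43, edgeR FDR 0.418). For *B3GAT3* this was -0.40 without DZC replicate 1 (edgeR FDR 0.625) and -1.32 without DZC replicate 2 (edgeR FDR 4.65e-05). *B4GALT7*, which adds the galactose next to xylose, was at 80.6 CPM in DZC replicate 1 but at 42.0 CPM in DZC replicate 2, just above the SZC values of 41.7 and 40.4 CPM. *B3GALT6*, the other galactosyltransferase of the linker, and *FAM20B*, the kinase that phosphorylates its xylose, had log2 fold changes of 0.06 and 0.17. *B3GAT1* had a log2 fold change of 0.12, and its DZC values of 4.85 and 1.08 CPM lay on either side of the SZC values of 2.91 and 3.49 CPM.

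The 6 genes that lengthen chondroitin chains gave no call, beside 2.93% of all genes, and the SZC and DZC libraries overlapped for each of the 6, where 41.5% of all genes did not overlap. *CSGALNACT1* and *CSGALNACT2* add the *N*-acetylgalactosamine that commits a chain to chondroitin, and *CHSY1*, *CHSY3*, *CHPF* and *CHPF2* encode the subunits that extend it. Their log2 fold changes lay between -0.17 and -0.03. These values are smaller than the shift of all genes between the scalings, under which all 6 become positive, and no direction is read from them. *CHSY1* was at 300 and 290 CPM in SZCs and 366 and 296 CPM in DZCs, and its log2 fold change of -0.17 had a 95% interval from -0.87 to 0.54. *CSGALNACT1* was among the least even genes within DZCs. It was at 384 and 369 CPM in SZCs, at 661 CPM in DZC replicate 1 and at 162 CPM in DZC replicate 2. Its log2 fold change was -0.13 (SE 0.67, edgeR FDR 1.00), and it reversed from -0.79 without DZC replicate 2 to 1.22 without DZC replicate 1. Without SZC replicates 1 and 2 in turn it was -0.16 and -0.10.

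Sulfation of chondroitin at the 6 and 4 positions of *N*-acetylgalactosamine is carried out by different enzymes. *CHST3* encodes the main chondroitin 6-*O*-sulfotransferase. It was at 37.8 and 42.2 CPM in SZCs and 39.1 and 44.6 CPM in DZCs, close together in both zones, and its log2 fold change was -0.07 (SE 0.34, edgeR FDR 1.00) with a 95% interval from -0.73 to 0.60. The interval includes values of either sign, and the sign follows the shift of all genes between the scalings. *CHST11*, which encodes a chondroitin 4-*O*-sulfotransferase that is needed for normal growth plates, was at 78.7 and 85.0 CPM in SZCs and at 199 and 94.4 CPM in DZCs. The DZC libraries were above both SZC libraries, one of them by little, and the log2 fold change was -0.84 (SE 0.46, edgeR FDR 0.654). The log2 fold change of *CHST11* was -0.20 and -1.26 without DZC replicates 1 and 2 in turn, and -0.79 and -0.90 without SZC replicates 1 and 2. *CHST12*, another chondroitin 4-*O*-sulfotransferase, and *CHST15*, which adds 6-sulfate to sugars that already carry 4-sulfate, had log2 fold changes of 0.23 and 0.32, and neither was called. *CHST7* and *CHST13*, a further 6-*O*- and a further 4-*O*-sulfotransferase, were too low to be tested. *CHST7* had 9 and 11 counts in SZCs against 0 and 4 counts in DZCs, and *CHST13* had 3 and 8 counts in SZCs against 3 and 12 in DZCs. For *CHST7* the summed level in DZCs was 0.236 of that in SZCs, with a 95% interval from 0.0586 to 0.703 for counting error alone.

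**Figure D3:**
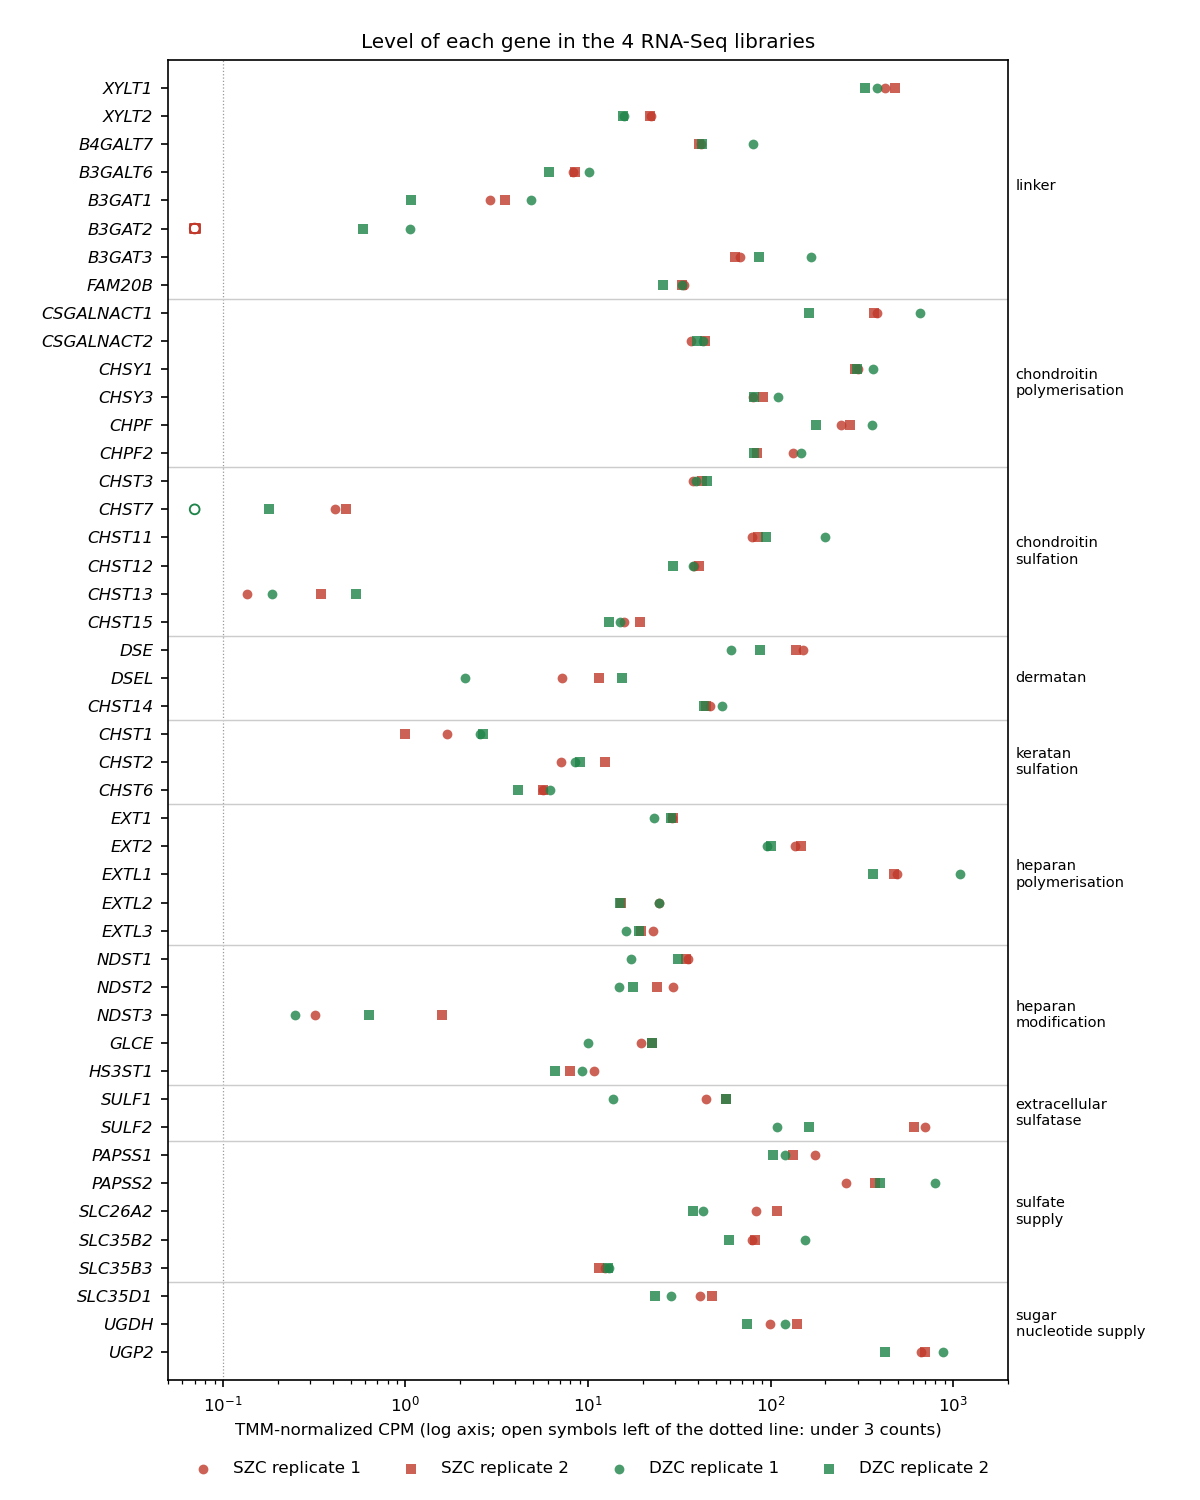
TMM-normalized CPM (log axis) of all 46 genes in SZC replicates 1 and 2 (red) and DZC replicates 1 and 2 (green), arranged by role, with open symbols for values under 3 counts. The SZC symbols mostly lie close together, while DZC replicates 1 and 2 are far apart for *CSGALNACT1* (661 and 162 CPM), *EXTL1* (1085 and 365 CPM), *DSEL* (2.12 and 15.3 CPM) and *SULF1* (13.7 and 57.0 CPM), and counts were not divided by length, so levels of different genes are not compared.

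Dermatan sulfate is made by *DSE* and *DSEL*, the epimerases that turn glucuronic acid into iduronic acid, and by *CHST14*, which then sulfates the chain. *DSE* was at 151 and 138 CPM in SZCs and at 60.7 and 87.99 CPM in DZCs. Both SZC libraries were above both DZC libraries, and the log2 fold change was 0.96 (SE 0.37), a 1.95-fold difference. The FDR of *DSE* was 0.205 by edgeR's exact test and so missed the threshold. The log2 fold change of *DSE* was 0.72 and 1.275 without DZC replicates 1 and 2 in turn, and 0.90 and 1.02 without SZC replicates 1 and 2. *DSEL* did not share this pattern. It was at 7.22 and 11.4 CPM in SZCs, at 2.12 CPM in DZC replicate 1 and at 15.3 CPM in DZC replicate 2, a 7.15-fold difference between the DZC libraries. *CHST14* had a log2 fold change of -0.10, whose sign follows the same shift of all genes, and its zones overlapped.

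Keratan sulfate is sulfated on galactose by *CHST1* and on *N*-acetylglucosamine by *CHST2* and *CHST6*. None of the 3 was called. *CHST1* was at 1.68 and 0.991 CPM in SZCs and at 2.55 and 2.64 CPM in DZCs, from 23 to 59 counts per library. The DZC values of *CHST1* were close together and above both SZC values, with a log2 fold change of -0.96 (SE 0.65, edgeR FDR 0.83). *CHST2* and *CHST6* had log2 fold changes of 0.15 and 0.14.

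Among the 44 genes, none of those for heparan chain growth or heparan modification in the Golgi was called. *EXT1* and *EXT2* form the heparan polymerase, and loss of one copy of either causes multiple osteochondromas in people. *EXT1* was at 28.9 and 29.3 CPM in SZCs and 22.9 and 28.5 CPM in DZCs, a log2 fold change of 0.18 (SE 0.35, edgeR FDR 1.00) with a 95% interval from -0.52 to 0.87. *EXT2* was at 136 and 146 CPM in SZCs and 96.2 and 101 CPM in DZCs. The replicates of *EXT2* were close within each zone and the zones were separate, with a log2 fold change of 0.52 (edgeR FDR 0.792). *EXTL3*, which starts heparan chains, and *EXTL2*, which can cap the linker, had log2 fold changes of 0.27 and 0.00. *EXTL1*, an *N*-acetylglucosaminyltransferase of the same family, was at 495 and 473 CPM in SZCs and at 1085 and 365 CPM in DZCs, on either side of the SZC values.

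The 5 listed genes of heparan modification that could be tested had positive log2 fold changes, from 0.24 to 1.10, where 46.6% of all genes were positive. None of the 5 was called, and the zones were separate for 2 of them, a share of 40.0% beside the 41.5% of all genes. *NDST1* and *NDST2* encode enzymes that replace acetyl by sulfate on glucosamine, the step that opens the chain to later sulfation. *NDST2* was at 29.2 and 23.7 CPM in SZCs and at 14.8 and 17.6 CPM in DZCs, a log2 fold change of 0.71 (SE 0.37, edgeR FDR 0.599). *NDST1* was at 35.5 and 34.6 CPM in SZCs and at 17.2 and 31.3 CPM in DZCs, with a log2 fold change of 0.53. For *NDST1* the lower DZC mean came mostly from DZC replicate 1. *GLCE*, the epimerase of heparan, was at 19.5 and 22.5 CPM in SZCs and at 10.0 and 22.5 CPM in DZCs. *HS3ST1*, a 3-*O*-sulfotransferase, had a log2 fold change of 0.24. *NDST3* had from 4 to 37 counts, with 7 and 37 in the SZC libraries, and its log2 fold change of 1.10 had an SE of 1.03.

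Within a library, the ratio of a pair of genes is free of scaling, and 17 pairs of related genes were compared in this way. The zones did not overlap for 8 of the 17, where 41.5% of all single genes did not overlap, and every pair had an adjusted p-value of at least 0.708 in exact two-sided permutation tests, where 0.333 is the smallest unadjusted p-value that 2 libraries against 2 allow. Of the 5 ratios that were higher in SZCs, 4 have *CHST11* as the denominator and so share its DZC values. The log2 ratio of *CHST3* to *CHST11*, of 6-*O*- to 4-*O*-sulfotransferase, was -1.06 and -1.01 in SZCs and -2.35 and -1.08 in DZCs. It was low in DZC replicate 1 and almost at the SZC level in DZC replicate 2. The ratio of *CHST12* to *CHST11* was -1.05 and -1.07 in SZCs and -2.40 and -1.69 in DZCs. Those of *CHST15* and *CHST14* to *CHST11* were also lower in both DZC libraries, and the remaining one, *CHST7* to *CHST3*, rests on the few counts of *CHST7*. Ratios higher in DZCs were those of *SULF1* to *SULF2* and *PAPSS2* to *PAPSS1*, given above, and that of *EXT1* to *EXT2*, which was -2.24 and -2.32 in SZCs and -2.07 and -1.82 in DZCs. In contrast, the ratio of *CHSY3* to *CHSY1* differed by 0.01 between the zone means.

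**Figure D4:**
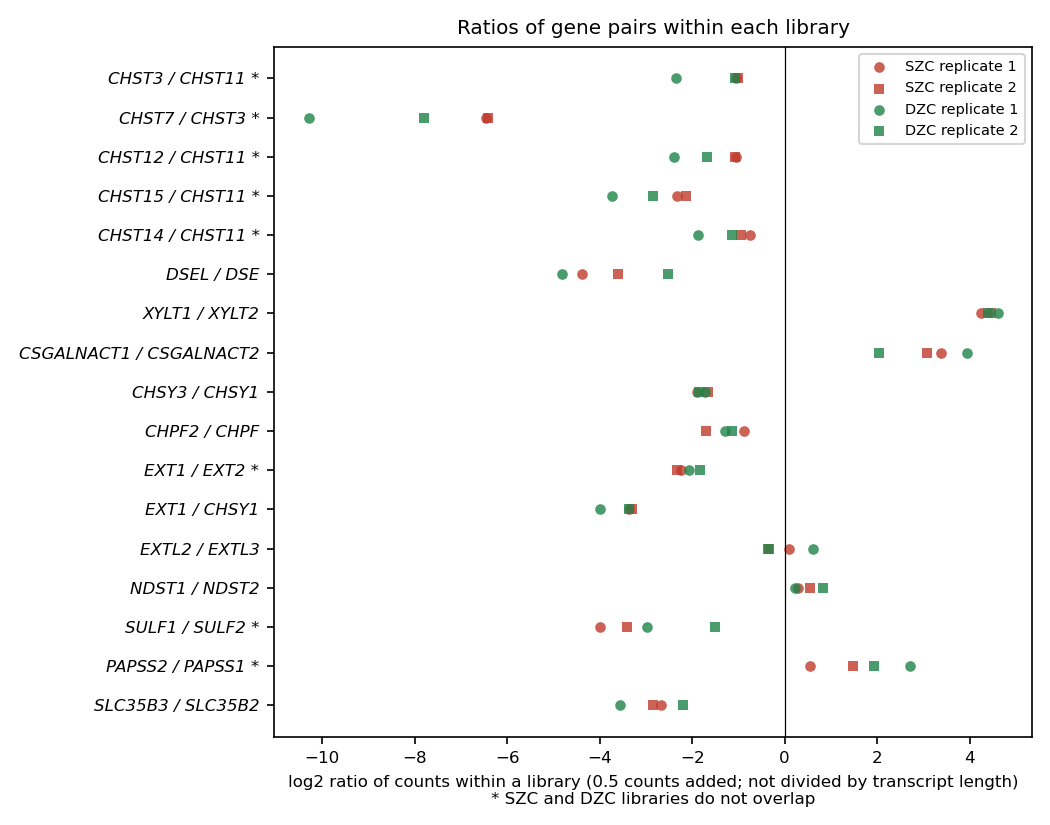
Log2 ratio of the counts of 17 pairs of related genes within each library (SZC red, DZC green), with a star where the zones do not overlap. For *SULF1* to *SULF2* the SZC values of -3.98 and -3.41 lie below the DZC values of -2.98 and -1.50, while those of *CHSY3* to *CHSY1* overlap.

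Much of the spread lay between the DZC libraries. The median absolute log2 difference between replicates was 0.19 in SZCs and 0.55 in DZCs for the 44 genes, beside 0.24 and 0.57 over all genes tested. The DZC replicates were over 2-fold apart for 12 of the 44 genes (27.3%, against 24.8% of all genes), and the SZC replicates for 2 of the 44 (4.55%, against 7.4% of all genes). These 2 were *NDST3* and *B3GAT2*, the latter with 0 and 1 counts. After TMM scaling, DZC replicate 1 was the higher of the DZC libraries for 30 of the 44 genes and the lower for 14 (31.8%, against 51.0% of all genes). It was higher for all 8 linker genes, all 6 genes of chondroitin chain growth, all 5 genes of sulfate supply and all 3 genes of sugar nucleotide supply. It was lower for both extracellular sulfatases and for 4 of the 5 tested genes of heparan modification. The directions in these counts depend on the scaling, with TMM factors of 0.735 for DZC replicate 1 and 1.08 for DZC replicate 2. With library totals, none of the groups in which it was higher would be complete. *XYLT1*, *CHSY1*, *PAPSS1* and *SLC35D1* had fewer counts in DZC replicate 1 than in DZC replicate 2, although DZC replicate 1 had the larger total. DZC replicate 1 was also the library with the largest share of *COL2A1*, and DZC replicate 2 the only one with *ALPL* (19.9 CPM), *IBSP* (12.0 CPM) and *COL10A1* (9.91 CPM) above 2 CPM. The part of either in these differences was not tested.

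**Figure D5:**
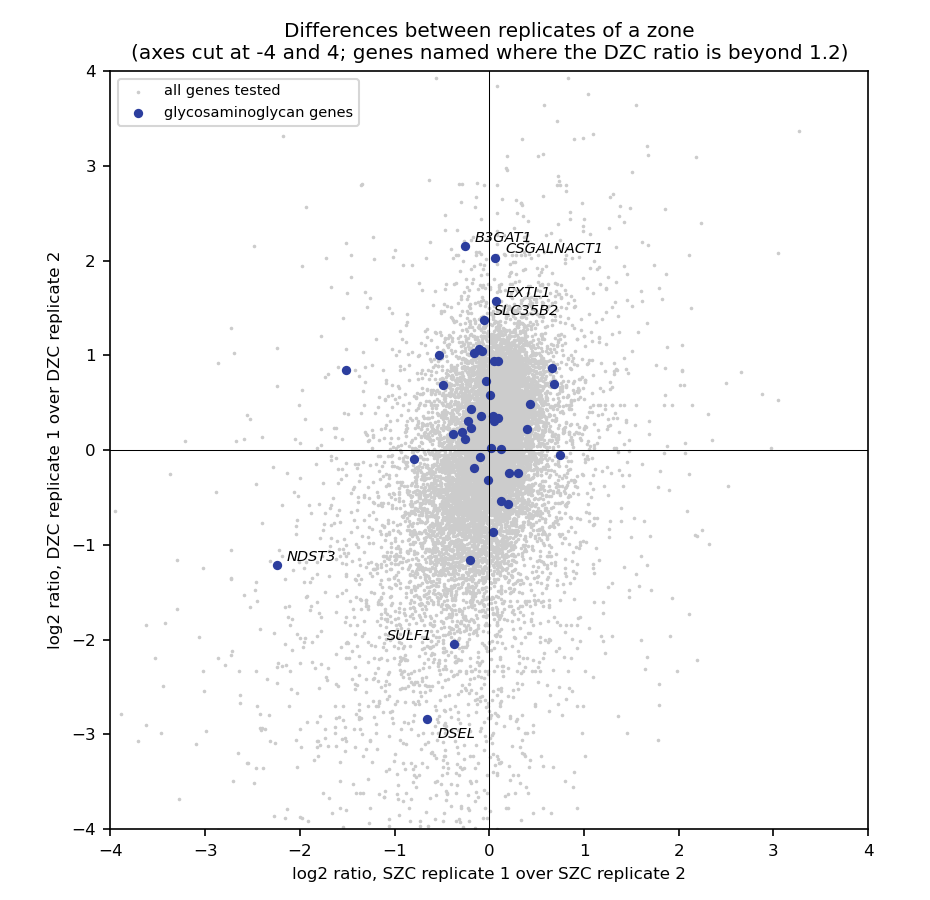
Log2 ratio of replicate 1 to replicate 2 in SZCs (horizontal axis) and in DZCs (vertical axis) for all genes tested (grey) and for the 44 glycosaminoglycan genes (blue), with 193 genes outside the axes. The blue points spread further along the DZC axis, from *B3GAT1* and *CSGALNACT1* at the top to *SULF1* and *DSEL* at the bottom.

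Other genes of the same pathways were listed by function. Of 33 such genes, among them makers of sugar nucleotides, enzymes of the keratan backbone and further sulfotransferases, 24 were tested and 1 was called (4.17%, beside the 2.93% of all genes). It was *HS3ST3A1*, which encodes a heparan 3-*O*-sulfotransferase, at 5.09 and 4.44 CPM in SZCs and at 42.1 and 20.04 CPM in DZCs. Both DZC libraries were well above the SZC libraries, with a log2 fold change of -2.70 (SE 0.50, edgeR FDR 5.31e-05), 6.51-fold higher in DZCs. It was -2.07 without DZC replicate 1 and -3.12 without DZC replicate 2. The call was lost without SZC replicate 1 (edgeR FDR 0.129) or SZC replicate 2 (0.0975) and in the quasi-likelihood test (0.171). *HS3ST3B1*, a further heparan 3-*O*-sulfotransferase, was at 4.59 and 3.79 CPM in SZCs and at 15.2 and 9.64 CPM in DZCs, a log2 fold change of -1.57 (SE 0.50, edgeR FDR 0.0753) that missed the threshold, and it is named after its values were seen. Of 16 genes of glycosaminoglycan breakdown, 0 were called by edgeR's exact test, beside 2.93% of all genes. At an unadjusted p-value below 0.05 there were 2 of the 16 (12.5%, against 9.09% of all genes). They were *GUSB* and *HPSE*, of which *HPSE* passed the filter only through the SZC libraries, where it is high. *HPSE*, which encodes heparanase, had 27 and 14 counts in SZCs and 2 and 1 in DZCs (edgeR FDR 0.0786).

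Of 18 tested genes for the core proteins that carry the chains, 3 were called (16.7%, beside the same 2.93%). *VCAN* encodes versican, a large chondroitin sulfate proteoglycan, and was at 2188 and 1844 CPM in SZCs and at 44.2 and 256 CPM in DZCs, a log2 fold change of 3.75 (edgeR FDR 0.00211). *DCN* encodes decorin, which carries a single dermatan or chondroitin sulfate chain, and was at 1029 and 672 CPM in SZCs and at 114 and 270 CPM in DZCs, a log2 fold change of 2.15 (edgeR FDR 0.00804). *GPC1* encodes the heparan sulfate proteoglycan glypican-1, and was higher in DZCs, at 483 and 342 CPM against 99.1 and 140 CPM, a log2 fold change of -1.79 (edgeR FDR 0.00176). The zones were separate for each of these 3 genes. The *VCAN* call held with each library left out in turn, that of *DCN* was lost without SZC replicate 1 (edgeR FDR 0.427), and that of *GPC1* without SZC replicate 1 (1.00) or SZC replicate 2 (0.266). For *VCAN* the log2 fold change was 2.98 without DZC replicate 1 and 5.53 without DZC replicate 2, and for *DCN* it was 1.66 and 2.92. The quasi-likelihood test called none of the 3. *ACAN*, which encodes aggrecan, was not called (log2 fold change -0.58, edgeR FDR 0.966), and its DZC values of 64599 and 23329 CPM lay on either side of the SZC values of 26525 and 32369 CPM.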

How the data were processed

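RNA-Seq data of 2 SZC and 2 DZC libraries, prepared with a low-input kit and sequenced single-end, were used. Reads had been aligned by the authors with STAR 2.5.2b to the Ensembl build UMD 3.1 and counted per gene without strand, and the counts were deposited without normalization. The deposited table of the authors' own comparison, with log2 fold changes and FDR values, was used only for gene names. ATAC-Seq libraries were not analysed here.

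Columns were matched to libraries by name. Replicates of a zone differed by more than sampling noise (chi-square per degree of freedom 65.7 for SZCs and 321 for DZCs). The study calls them biological duplicates. The tests were run in R 4.3.3 with edgeR 4.0.16, using TMM, gene-wise dispersion and the exact test as in the study's methods, after edgeR's default filter on low counts (minimum count 10), which was chosen here, and with DESeq2 1.42.0 as an alternative. The scripts were tested on simulated data. Standard errors and 95% intervals follow from the negative binomial model and the gene-wise dispersion. Intervals from summed counts are exact binomial intervals on counts pooled over the libraries of a zone. They reflect counting error alone and leave out variation between libraries. PCR copies of a molecule are counted separately, so the intervals may be too narrow even for counting error. Ratios within libraries were computed as log2 after adding 0.5 counts.

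The members, the other gene lists and the pairs were chosen with earlier results of these data known. Values in every library are given for members with an unadjusted p-value below 0.05, for members at least 2-fold different without overlap, and for 12 members fixed by role; other members described by library were chosen after their values were seen. Overlapping genes were looked up in the RefSeq table of assembly ARS-UCD2.0, by name only. Of the 50 members, 20 share their span with another gene there. Among them are *SULF2*, with the long non-coding RNA LOC112449340, and *B3GAT3*, with *CSKMT*. Counts of the overlapping gene are given only for *SLC26A2* and *B3GAT2*.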

Additional observations from a re-analysis of the deposited data

How the results depend on the processing

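With the edgeR quasi-likelihood test and no block, 0 members were called, 0 higher in SZCs and 0 higher in DZCs, as were 0 of all genes and 0 of the other pathway genes. DESeq2 and the filter that requires over 1 CPM in 2 or more libraries each called 0 members higher in DZCs, and DESeq2 called 2 other pathway genes, against 1. Scaling by library totals moved the median log2 fold change of the members from 0.13 to 0.46 and that of all genes from -0.04 to 0.26, and the same 3 members were called. The share of all calls that were higher in SZCs was then 86.7%, against 76.1%, as calls higher in SZCs went from 287 to 288 and those higher in DZCs from 90 to 44. The cause of these changes was not tested. With each library left out in turn, the number of members called ranged from 0 to 16, of those higher in SZCs from 0 to 8 and of those higher in DZCs from 0 to 8. Over the same fits all genes called ranged from 68 to 2768, other pathway genes called from 0 to 6, members without overlap from 27 to 38, the median of the members from 0.023 to 0.41, and pairs whose ratios did not overlap from 11 to 15, since fewer libraries overlap less. In these fits the members without overlap were 61.4% to 86.4% of those tested, beside 59% to 85.7% of all genes. Without DZC replicate 1, *CSGALNACT1* reversed to a log2 fold change of 1.22, against -0.79 without DZC replicate 2.

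The sources used here do not say if libraries with one number share a joint, and the deviations of such libraries from the zone means had a correlation of 0.42 over all genes and 0.24 over the 44 members. With the replicate number as a block, edgeR's quasi-likelihood test called 347 genes and 1 member, *SULF2* (FDR 0.0197), which was 1 higher in SZCs and 0 higher in DZCs. *SLC26A2* (FDR 0.062), *B3GAT2* (0.09) and *DCN* (0.062) were not called with the block, and *HS3ST3A1*, *VCAN* and *GPC1* were. Depth limits the values of *B3GAT2*, *CHST7*, *CHST13* and *NDST3*, which rest on 37 counts or fewer per library.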
